A study of Mus musculus with 16 samples.

Results

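The genes described here are 39 components of the machinery that releases synaptic vesicles. They were taken by symbol from a fixed list of calcium sensors, complexins, SNARE proteins, active zone proteins, Rab3 proteins, synapsins and vesicle membrane proteins. All 39 were found among the 30142 genes that had a transcript cluster (the probe set of a gene) of their own, and all 39 passed the filter on low values among the 20095 genes tested. Each was measured by 1 such cluster.

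The arrays hold RNA of tdTomato-positive cells that were sorted by fluorescence from the brains of C57BL/6J mice aged 30 days, labelled male, with 2000 cells per array pooled from 2 to 4 mice. Both lines were heterozygous. In PV-tdTomato/+ mice the reporter was present with no Cre, and in PVCre/+; tdTomato/+ mice Cre driven from the parvalbumin locus switched the reporter on, so that a cell that had made Cre earlier also kept the label. From each line, 4 arrays came from dorsal striatum and 4 from motor and somatosensory cortex, 16 in all. The labels name no separate treatment, and the same mice may have given cells of both regions.

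A vesicle filled with transmitter is docked at the active zone by Rab3, RIM, Munc13, Bassoon and Piccolo, and the SNARE proteins synaptobrevin (Vamp), syntaxin and SNAP-25 pull it towards the plasma membrane. Complexin holds the partly assembled SNARE complex, synaptotagmin senses the calcium that triggers fusion, and NSF with its adaptor SNAP takes the complex apart afterwards. Synapsins tether the reserve pool of vesicles, and SV2, synaptophysin and their relatives sit in the vesicle membrane. Fast-spiking parvalbumin interneurons are known for synchronous, very brief release, and their terminals for the isoforms synaptotagmin 2 (Syt2), complexin 1 (Cplx1) and synaptobrevin 1 (Vamp1), whereas synaptotagmin 1 (Syt1), complexin 2 (Cplx2) and synaptobrevin 2 (Vamp2) are the paralogs of many forebrain neurons.

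The bases just before the transcription start of these 6 genes, with synapsin 1 (Syn1) added for its motifs, were read from RefSeq on mouse build GRCm38.p6. No window was listed for Vamp2, and 30 of the 39 members had at least 1. Each window below is 250 bases long, ends at the base before a RefSeq start and is written 5′ to 3′ on the strand of the gene. Capitals mark a GC box (GGGCGG on either strand), the left part of the RE1 site bound by the neuronal repressor REST (TTCAGCACC) or a cyclic AMP response element (TGACGTCA). The windows are shown so that the promoters of the fast-spiking isoforms can be set beside those of their paralogs. Syt2 and Syt1 each have a further start, and the one farther upstream is shown.
Syt2 (chr1:134646362-134646611, plus strand): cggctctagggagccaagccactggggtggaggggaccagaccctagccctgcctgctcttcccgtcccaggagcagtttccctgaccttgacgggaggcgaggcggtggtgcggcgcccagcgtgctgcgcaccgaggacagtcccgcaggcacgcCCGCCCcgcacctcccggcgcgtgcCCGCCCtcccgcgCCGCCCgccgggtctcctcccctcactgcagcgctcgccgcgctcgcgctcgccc
Syt1 (chr10:109010976-109011225, minus strand): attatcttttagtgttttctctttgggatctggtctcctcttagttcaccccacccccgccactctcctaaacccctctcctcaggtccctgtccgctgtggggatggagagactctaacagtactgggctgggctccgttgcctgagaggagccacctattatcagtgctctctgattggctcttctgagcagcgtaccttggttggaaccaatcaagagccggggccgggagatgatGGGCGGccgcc
Cplx1 (chr5:108550028-108550277, minus strand): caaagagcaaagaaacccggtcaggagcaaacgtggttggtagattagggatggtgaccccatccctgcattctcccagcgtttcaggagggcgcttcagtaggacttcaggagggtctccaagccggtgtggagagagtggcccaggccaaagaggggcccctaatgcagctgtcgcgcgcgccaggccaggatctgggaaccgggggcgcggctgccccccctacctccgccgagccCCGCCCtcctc
Cplx2 (chr13:54302306-54302555, plus strand): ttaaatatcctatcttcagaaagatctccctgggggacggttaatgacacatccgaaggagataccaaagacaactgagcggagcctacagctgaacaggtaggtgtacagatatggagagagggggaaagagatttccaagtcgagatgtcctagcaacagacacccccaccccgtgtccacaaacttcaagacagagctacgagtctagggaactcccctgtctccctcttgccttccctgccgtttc
Vamp1 (chr6:125215331-125215580, plus strand): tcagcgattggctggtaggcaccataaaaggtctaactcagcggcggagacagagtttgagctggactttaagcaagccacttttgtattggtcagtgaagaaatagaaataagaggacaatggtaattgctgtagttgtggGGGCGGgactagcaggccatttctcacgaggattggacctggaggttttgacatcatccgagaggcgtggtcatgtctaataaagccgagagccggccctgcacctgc
Syn1 (chrX:20920919-20921168, minus strand): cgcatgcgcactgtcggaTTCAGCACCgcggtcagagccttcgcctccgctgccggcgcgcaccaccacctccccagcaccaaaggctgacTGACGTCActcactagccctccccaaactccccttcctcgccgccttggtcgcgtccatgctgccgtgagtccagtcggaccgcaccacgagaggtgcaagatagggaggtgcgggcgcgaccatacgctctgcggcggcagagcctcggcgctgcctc

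The Syt2 window held 3 GC boxes, those of Syt1, Cplx1 and Vamp1 held 1 each, and that of Cplx2 held 0. The window of the other start held 2 GC boxes for Syt2 and 0 for Syt1. G and C made up 76% of the Syt2 window, 64.8% of that of Cplx1 and 50.4% of that of Vamp1, against 56.4% for Syt1 and 50.8% for Cplx2. Over all members with a window, 23 of 30 (76.7%) had a GC box in at least 1 window, whereas 35.4% of all 27025 genes and 32.7% of all 32851 windows of this length did. The windows of the members had a median of 61.2% G and C, and all windows 52.4%. Syn1 was the single member with the RE1 part, which 0.301% of all windows held, and the single member with the cyclic AMP response element, which 1.55% held. These matches describe letters in the windows and were not measured as binding.

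RMA levels are given as log2 values, and levels of different genes are not set against each other because probes differ. The 23 background probe sets of the arrays had mean levels of 2.95 to 6.1, and a member at 6.1 or lower is called within background here. Marker levels of the sorted cells differed between arrays. Pvalb ranged from 6.69 to 8.40 in a lower set of 6 arrays, made up of PV-tdTomato replicates 3 and 4 in either region and PVCre cortex replicates 2 and 4, and from 10.20 to 12.48 in the remaining 10. Comparisons without those 6 thus rest on replicates 1 and 2 alone in each PV-tdTomato group and on replicates 1 and 3 in PVCre cortex. The positive control probe sets lay 4.16 to 4.85 above the negative ones in PV-tdTomato arrays and 3.08 to 3.93 above them in PVCre arrays, so the line and any batch that followed it cannot be told apart. The mean of 9 oligodendrocyte markers was 12.85 to 13.36 in PV-tdTomato replicates 1 and 2, 14.81 to 15.32 in replicates 3 and 4, and 14.71 to 15.65 in PVCre arrays. That of 9 microglia markers was 5.39 to 5.97 in PV-tdTomato and 7.67 to 9.89 in PVCre arrays. Xist, which marks female cells, was at 13.40 to 16.01 in 8 arrays (1 of 4 in each PV-tdTomato group, 3 of 4 in each PVCre group) and at 5.71 to 6.56 in the other 8, although the labels give all mice as male. Because these are bulk samples, fewer cells of a type and less RNA per cell cannot be told apart in any result below.

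Of the fast-spiking isoforms, Syt2, the fast calcium sensor of these terminals, was barely measured. Its level was 6.08, 6.34, 5.53 and 5.71 in PV-tdTomato striatum (replicates 1 to 4) and 6.51, 6.29, 5.33 and 5.49 in PV-tdTomato cortex. It was 5.71, 5.67, 5.74 and 5.76 in PVCre striatum and 6.10, 6.00, 6.72 and 5.49 in PVCre cortex. Thus 12 of 16 arrays were within background, the highest of all was PVCre cortex replicate 3, and all groups overlapped. No comparison of Syt2 over the 16 arrays passed the test, with differences between -0.36 and 0.17. It was called between lines in striatum when the 6 arrays low in Pvalb were left out, at -0.49 ± 0.18 (limma adjusted p = 0.043), where all 4 PVCre arrays were within background. So was PV-tdTomato replicate 1, at 6.08, which leaves only replicate 2, at 6.34, above background in that comparison.

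Syt1, its paralog, was far above background in every array. It measured 15.41, 15.14, 12.94 and 13.95 in PV-tdTomato striatum, 16.29, 16.25, 14.28 and 14.23 in PV-tdTomato cortex. For PVCre it measured 13.26, 14.42, 14.94 and 14.72 in striatum, and in cortex 13.51, 10.45, 14.42 and 10.22. There replicates 2 and 4, both low in Pvalb, fell below every other array. Replicates 1 and 2 of PV-tdTomato were above replicates 3 and 4 in both regions. Syt1 was lower in PVCre than in PV-tdTomato cortex by a log2 difference of -3.11 ± 0.90 (SE; limma adjusted p = 0.0097), and at -2.30 ± 0.51 (adjusted p = 0.0064) without the 6 arrays low in Pvalb. In striatum the difference between lines was -0.02 ± 0.90 (adjusted p = 0.99).

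Cplx1 was measured at 13.64, 13.01, 10.95 and 11.28 in PV-tdTomato striatum and 13.51, 12.69, 9.97 and 10 in the cortex of that line. The PVCre arrays measured 10.14, 11.26, 12.01 and 10.96 for striatum and 10.44, 8.74, 12.08 and 8 for cortex. All groups overlapped, and the arrays low in Pvalb were the lowest of their groups. The difference between lines was -1.13 ± 0.97 in striatum (limma adjusted p = 0.35) and -1.73 ± 0.97 in cortex (0.15). Over the 10 arrays high in Pvalb it was -2.23 ± 0.57 (adjusted p = 0.0099) and -1.84 ± 0.66 (0.047), and in cortex it was also called, at -2.48 (0.038), when PVCre replicate 3 alone was left out.

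Cplx2 separated the lines completely. It measured 11.17, 11.31, 9.31 and 9.83 in PV-tdTomato striatum and 12.87, 12.56, 9.75 and 9.82 in PV-tdTomato cortex. In PVCre it was at 6.78, 7.29, 7.07 and 6.69 in striatum and 6.95, 6.56, 6.54 and 6.41 in cortex, just above background. No PVCre array reached the lowest PV-tdTomato array. Cplx2 fell by 3.45 ± 0.65 in striatum (limma adjusted p = 0.00051) and differed by -4.64 ± 0.65 in cortex (4.9e-05), and without the 6 arrays low in Pvalb the differences were -4.28 ± 0.20 and -5.97 ± 0.23. Among those 10 arrays striatal Cplx2 was lower than cortical Cplx2 in the PV-tdTomato line (-1.47 ± 0.23, adjusted p = 0.0091), a difference that was -0.85 ± 0.65 (0.92) over all arrays. The former value compares only replicates 1 and 2 of each region.

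Vamp1 measured 10.72, 10.71, 8.63 and 9.19 in PV-tdTomato striatum and 11.77, 10.78, 8.54 and 8.36 in the cortex of that line. The PVCre arrays measured 8.96, 9.84, 10.44 and 10.01 for striatum and 9.80, 9.38, 11.99 and 8.50 for cortex. The groups overlapped throughout, and the cortical replicates alone ran from 8.36 to 11.77 in PV-tdTomato and from 8.50 to 11.99 in PVCre. The line differences were 0.00 ± 0.83 in striatum and 0.05 ± 0.83 in cortex (limma adjusted p = 1 and 0.96), and the region differences were -0.05 ± 0.83 and -0.10 ± 0.83. Another cluster that the annotation shares between Vamp1 and its neighbour E130112N10Rik had group means of 7.27, 7.09, 7.72 and 7.56 in the same order and was not used.

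Vamp2, the synaptobrevin of most forebrain synapses, differed little between replicates. It was at 10.64, 10.30, 10.06 and 10.04 in PV-tdTomato striatum and 10.53, 10.16, 9.85 and 9.80 in PV-tdTomato cortex. In PVCre it measured 8.53, 9.38, 9.53 and 9.37 in striatum and 9.39, 8.90, 9.85 and 8.81 in cortex. All PVCre striatal arrays were below all PV-tdTomato striatal ones, whereas in cortex PVCre replicate 3 reached the PV-tdTomato range. Vamp2 was lower in PVCre by -1.06 ± 0.27 in striatum (limma adjusted p = 0.0041) and -0.85 ± 0.27 in cortex (0.015). With quantile normalization these values were -0.49 (0.089) and -0.24 (0.4), in cortex without the 6 arrays low in Pvalb -0.72 (0.11), and without PV-tdTomato cortex replicate 1 -0.70 (0.052).

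**Figure D1:**
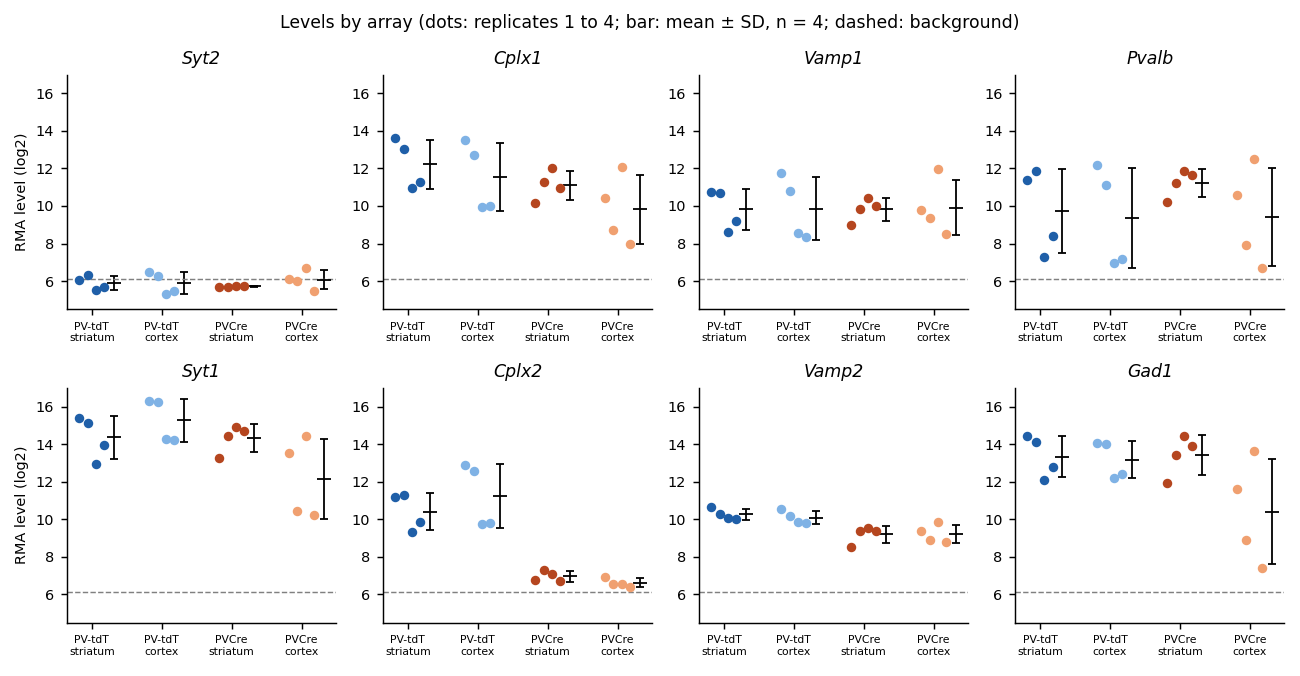
RMA level (log2) of the 3 fast-spiking isoforms (top) and their paralogs (bottom), with Pvalb and Gad1, by group. Dots are arrays in the order of replicates 1 to 4, bars the mean ± SD (n = 4), and the dashed line is the highest background probe set mean, 6.1. Syt2 lies near that line in every group, Cplx2 separates the lines, and Vamp1 follows the spread of Pvalb.

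The difference between paralogs within an array was compared between groups. Cplx2 was just above background in PVCre, so the size of Cplx1 minus Cplx2 is a low estimate there. In PV-tdTomato, Cplx1 minus Cplx2 was 1.82 ± 0.45 for striatum and 0.29 ± 0.23 for cortex (SD, n = 4 each). In PVCre these means were 4.14 ± 0.66 and 3.20 ± 1.75. Within each region no PVCre array overlapped a PV-tdTomato one: 3.36 to 4.94 against 1.45 to 2.47 in striatum, and 1.60 to 5.54 against 0.13 to 0.64 in cortex. It was higher in PVCre by 2.61 ± 0.48 (SE) over both regions, 2.32 in striatum and 2.91 in cortex (two-sided exact permutation test within regions, p = 0.00041, the smallest that 4900 permutations can give, adjusted p = 0.0024 over 6 paralog tests). Without the 6 arrays low in Pvalb it was 3.09 (exact permutation p = 0.011, adjusted p = 0.067). With the arrays left, that p is the smallest the permutations can give, so the adjusted value cannot show the difference to be weaker. Over all 16 arrays both genes had lower means in PVCre. Cplx1 was at -1.13 in striatum and -1.73 in cortex (not called), and Cplx2 at -3.45 and -4.64. The higher difference thus goes with a lower Cplx2 and not with a higher Cplx1.

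Between the regions, Cplx1 minus Cplx2 was higher in striatum by 1.23 ± 0.48 (exact permutation p = 0.024, adjusted p = 0.072), 1.52 in PV-tdTomato and 0.93 in PVCre. Leaving out PV-tdTomato cortex replicate 1 gave 1.29 (adjusted p = 0.047), and leaving out PVCre cortex replicate 3 gave 1.62 (0.0037). In the PV-tdTomato line the 4 striatal arrays, at 1.45 to 2.47, were all above the 4 cortical ones, at 0.13 to 0.64.

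The other pairs did not pass the test. Syt2 was within background on 12 of 16 arrays, so Syt2 minus Syt1 is nearly the Syt1 level with its sign turned and says nothing of Syt2. It differed by 1.55 ± 0.53 between lines (exact permutation p = 0.044, adjusted p = 0.076), -0.17 in striatum and 3.28 in cortex, and its region difference was -0.82 ± 0.53 (adjusted p = 0.33). The line difference was 1.73 (adjusted p = 0.047) without PV-tdTomato striatum replicate 3. Vamp1 minus Vamp2 was higher in PVCre by 0.98 ± 0.48 (exact permutation p = 0.051, adjusted p = 0.076), by 1.22 (0.047) without PV-tdTomato cortex replicate 1, and its region difference was -0.15 ± 0.48 (adjusted p = 0.76).

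**Figure D2:**
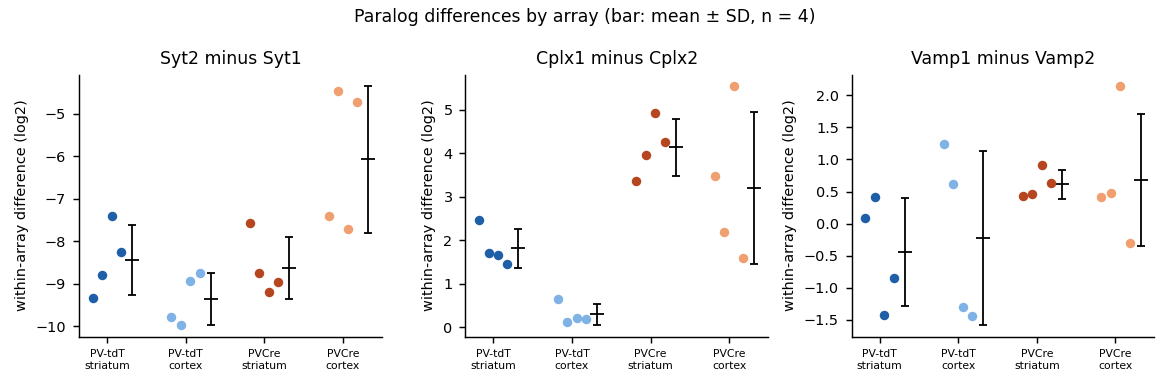
Difference in log2 level between the fast-spiking isoform and its paralog within each array, by group, with dots for replicates 1 to 4 and bars for the mean ± SD (n = 4). Cplx1 minus Cplx2 is at 3.36 to 4.94 in PVCre striatum and 1.45 to 2.47 in PV-tdTomato striatum, and the Syt2 minus Syt1 values of PVCre cortex reach up to -4.45.

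How the isoforms followed Pvalb was examined within sets of arrays, because Pvalb falls into a lower and a higher cluster. In all, 18 relations were computed, and p-values were adjusted over them. In the 10 arrays of the higher cluster, Vamp1 had the closest relation, with Pearson's r = 0.86 (permutation p = 0.0016, adjusted p = 0.029) and Spearman's rho = 0.73 (permutation p = 0.02, adjusted p = 0.12). Without the 2 arrays farthest from the median of Pvalb, r was 0.66. In the 6 PVCre arrays among them, which come from a single line, Vamp1 had r = 0.90 (exact permutation p = 0.0056, adjusted p = 0.05) and rho = 1.00 (p = 0.0028, adjusted p = 0.05), with r = 0.81 without the 2 farthest. In the 6 arrays of the lower cluster r was also 0.86 (exact permutation p = 0.049, adjusted p = 0.15), but 0.07 without the 2 farthest, so that value rests on those arrays. The 4 PV-tdTomato arrays of each cluster are too few for a value of their own.

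Of the other relations, none passed the adjusted threshold. Cplx1 had r = 0.62 in the 10 arrays (permutation p = 0.057, adjusted p = 0.15), 0.93 in the 6 PVCre arrays (exact permutation p = 0.014, adjusted p = 0.075) and 0.48 in the lower cluster (adjusted p = 0.44). Its paralog Cplx2 had r = 0.21, -0.29 and 0.16 in the same sets, with permutation adjusted p from 0.69 to 0.83. The first and last sets mix lines whose Cplx2 levels do not overlap. In the PVCre set Cplx2 was just above background. These values therefore cannot show whether Cplx2 follows Pvalb. Vamp2 had 0.59, 0.85 and 0.23, and Syt1 0.55, 0.84 and 0.13. Syt2 had 0.57, 0.52 and 0.74, over levels that were mostly within background, and its values without the 2 farthest arrays were 0.19, -0.78 and 0.32.

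Across all 39 members, the median r with Pvalb was 0.36 in the 10 arrays against 0.09 for all genes tested, and 0.52 against -0.02 in the 6 PVCre arrays. In the lower cluster the medians were 0.21 and -0.04. In the PVCre arrays 17 members had r above 0.7, or 43.6%, whereas 16.4% of all genes did. In the 10 arrays only 2 members did (5.13%, against 2% of all genes), and in the lower cluster 2 (5.13%, against 1.67%). The highest in the PVCre arrays were Syp, which encodes synaptophysin, at 0.99, Rims1 at 0.95, Cplx1 at 0.93 and Syn1 at 0.92. Sypl, the relative of synaptophysin found in many cell types, went the other way, with r = -0.56, -0.55 and -0.81 in the higher cluster, the lower cluster and the PVCre arrays. Syt5 had r = -0.86 in the PVCre arrays, where striatum replicate 1 stood apart at 9.31 against 8.26 to 8.42 in the other striatal arrays. The r of Syt9, -0.89, comes from levels that were all within background. These arrays differ in region and in marker means of other cells as well as in Pvalb, so the values are a description.

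**Figure D3:**
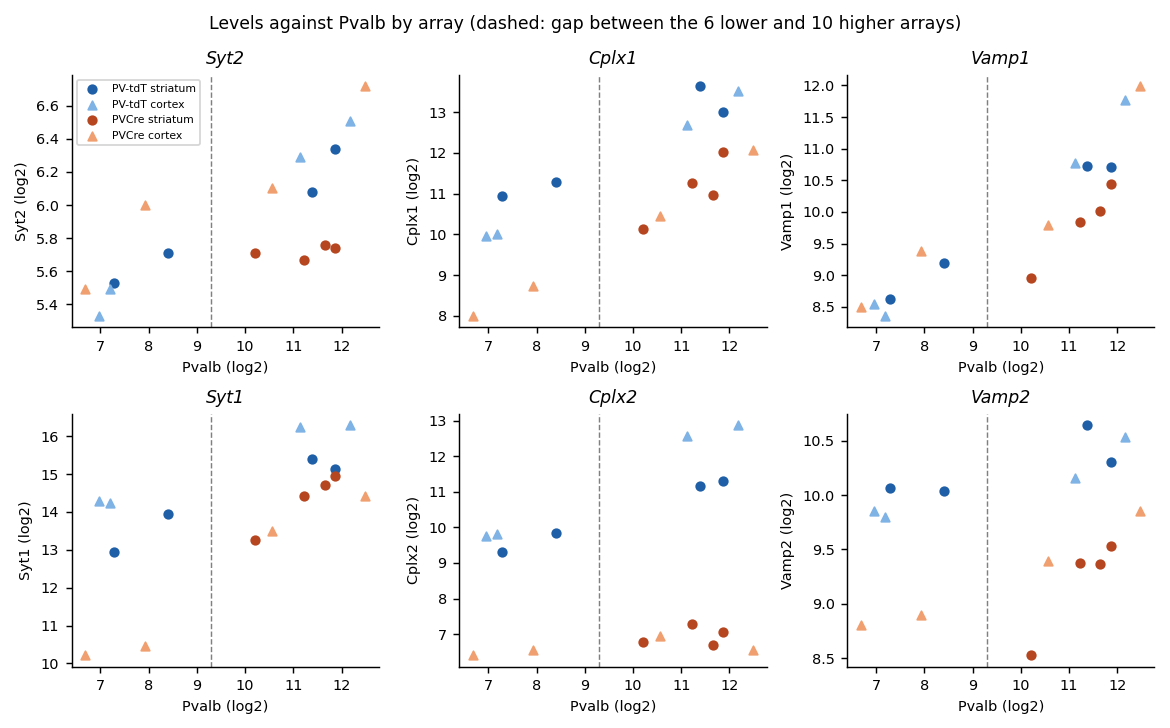
Log2 level of the 6 contrast genes (y) against Pvalb (x) in 16 arrays. Colors mark the line and shapes the region, and the dashed line marks the gap between the 6 arrays at 6.69 to 8.40 and the 10 at 10.20 to 12.48. Vamp1 rises with Pvalb in the higher cluster (r = 0.86). Cplx2 is higher in every PV-tdTomato array than in any PVCre array. Within PV-tdTomato it is at 11.17 to 12.87 in the higher Pvalb cluster and at 9.31 to 9.83 in the lower.

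The first comparison of groups asked how the sorted cells of striatum differ from those of cortex. With the lines together, 3 of 39 members passed the test, 1 higher and 2 lower in striatum, where 4.32% of all genes tested passed (3.37% higher, 0.955% lower). The median difference of the members was 0.07 and that of all genes 0.00. In the PV-tdTomato line 4 members passed (2.36% of all genes), and in the PVCre line 2 did (3.96%). Arrays of the regions did not overlap for 1 member higher and 4 lower in PV-tdTomato, against 3.75% and 2.26% of all genes, and for 3 higher and 2 lower in PVCre, against 6.01% and 7.47%. With the replicate number as a block, 8 members passed over both lines (10.3% of genes), 3 in PV-tdTomato (2.87%) and 7 in PVCre (10.4%). That block pairs the regions by number in both lines, although by the criterion given below the number did not pair them in PVCre. With the Xist class of the array as a covariate the same members passed. Of the cell type markers, 3 of 6 tested striatal projection neuron genes, 3 of 6 of astrocytes and 2 of 8 of endothelial and mural cells were higher in striatum, 1 of 5 of pyramidal neurons was lower, and 0 of 9 parvalbumin interneuron markers passed with limma (3 at an unadjusted p of 0.05 or less). The endothelial and mural mean was 6.90 to 8.89 in PVCre striatum and 5.59 to 6.45 in the other groups. The part of these cells in the region differences was not tested.

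Doc2b, a calcium sensor of the double C2 family that acts in spontaneous and asynchronous release, was higher in striatum in both lines. It was at 6.70, 6.86, 6.14 and 6.43 in PV-tdTomato striatum and 6.46, 6.53, 7.29 and 6.69 in PVCre striatum. In cortex it was at 5.84, 5.54, 5.88 and 5.71 in PV-tdTomato and 5.57, 5.73, 5.51 and 5.71 in PVCre, within background on all 8 arrays. Every striatal array was above every cortical one. The difference was 0.95 ± 0.13 over both lines (limma adjusted p = 0.00028), 0.79 ± 0.18 in PV-tdTomato (0.033) and 1.11 ± 0.18 in PVCre (0.0023), and it understates the change where cortex is at background. In PV-tdTomato alone the call was lost with the replicate block (adjusted p = 0.091), with quantile normalization (0.67, adjusted p = 0.13) and with centring (0.74, 0.058). It was also lost without PV-tdTomato striatum replicate 1, 2 or 4, PV-tdTomato cortex replicate 1, 2 or 4, PVCre striatum replicate 4 or PVCre cortex replicate 1, at 0.69 to 0.83 and adjusted p up to 0.13.

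Cplx3, a complexin with a lipid anchor that is abundant in retina and in some cortical neurons, was lower in striatum in the PV-tdTomato line. It was at 7.25, 6.94, 6.87 and 6.79 in striatum and 8.77, 7.65, 8.55 and 8.37 in cortex there, with no overlap. In PVCre it was near background in both regions, at 6.10, 6.22, 6.36 and 5.88 in striatum and 5.95, 6.22, 5.94 and 6.07 in cortex. The difference was -1.37 ± 0.20 in PV-tdTomato (limma adjusted p = 0.00085), 0.09 ± 0.20 in PVCre (0.86) and -0.64 ± 0.14 over both (0.015). Without the 6 arrays low in Pvalb these were -1.12 (adjusted p = 0.089) in PV-tdTomato and -0.46 (0.25) over both lines.

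Sv2c, a vesicle glycoprotein of restricted distribution that also serves as a receptor of botulinum toxin, had the same form. It measured 8.15, 7.59, 8.28 and 8.37 in PV-tdTomato striatum and 9.88, 8.78, 9.72 and 9.27 in PV-tdTomato cortex, without overlap. PVCre arrays were at 5.92, 6.64, 5.74 and 5.96 in striatum and 5.69, 5.81, 5.64 and 5.53 in cortex, where only striatal replicate 2 exceeded background. The difference was -1.32 ± 0.25 in PV-tdTomato (limma adjusted p = 0.0072) and 0.40 ± 0.25 in PVCre (0.46). Without the 6 arrays low in Pvalb the first was -1.46 (adjusted p = 0.073).

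Stx1a, the syntaxin of the target membrane, was lower in striatum. It was at 7.57, 8.08, 7.44 and 7.60 in PV-tdTomato striatum against 8.71, 8.81, 8.15 and 8.14 in cortex, and at 6.85, 6.78, 7.03 and 6.79 in PVCre striatum against 7.78, 7.60, 7.24 and 7.39. Within each line no striatal array reached the cortical range. The difference was -0.71 ± 0.13 over both lines (limma adjusted p = 0.0038), -0.78 ± 0.18 in PV-tdTomato (0.038) and -0.64 ± 0.18 in PVCre (0.075; 0.026 with the replicate block). The PV-tdTomato call was near the threshold. It was lost with quantile normalization (-0.76, adjusted p = 0.055), with array weights (-0.59, 0.053) and among genes with a mean of at least 7 (-0.78, 0.075). It was also lost without PV-tdTomato striatum replicate 1, 3 or 4, PV-tdTomato cortex replicate 1 or 2, any PVCre striatum replicate, or PVCre cortex replicate 2 or 4, at -0.66 to -0.78 and adjusted p up to 0.15.

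Rab3c, a vesicle GTPase, was higher in striatum in the PVCre line. It measured 10.88, 12.41, 13.12 and 12.56 in PVCre striatum and 8.98, 6.91, 10.91 and 6.02 in PVCre cortex, where the lower values belong to replicates 2 and 4 and replicate 3 was just above striatal replicate 1. In PV-tdTomato it was at 14.81, 14.82, 12.66 and 12.96 in striatum and 15.39, 15.49, 13.51 and 13.50 in cortex. The PVCre difference was 4.04 ± 0.93 (limma adjusted p = 0.025) and that of PV-tdTomato -0.66 ± 0.93 (0.97). The call was lost without the 6 arrays low in Pvalb (2.30 ± 0.64, adjusted p = 0.1), and without PVCre striatum replicate 2, 3 or 4 or PVCre cortex replicate 2 or 4 (3.31 to 3.98, adjusted p up to 0.087).

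Whether the region effect itself differed between lines was tested as an interaction, which passed for 0 of 39 members and for 0.199% of all genes with limma, and 6 members were at an unadjusted p of 0.05 or less (7.17% of genes). The effects of Rab3c (4.70 ± 1.32, limma adjusted p = 0.26), Sv2c (1.72 ± 0.35, 0.08) and Cplx3 (1.47 ± 0.28, 0.055) were therefore not shown to differ between lines, although Sv2c (0.022) and Cplx3 (0.04) passed with the replicate block. In PVCre that block uses numbers that did not pair the regions by the criterion given below. Synpr, which encodes synaptoporin, was at 9.63 and 9.84 in PV-tdTomato cortex replicates 1 and 2 and at 7.32 to 8.32 in all other arrays. Its interaction was 0.91 ± 0.46 (adjusted p = 0.75) over all arrays and 1.83 ± 0.18 (0.0014) without the 6 arrays low in Pvalb, a value that compares those 2 cortical arrays with 8 others.

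Among the members that did not pass over both lines, some were called without the 6 arrays low in Pvalb, where 8 of 39 members and 7.97% of all genes were. Only replicates 1 and 2 of each PV-tdTomato group enter there. Doc2b and Stx1a were among the 8. Unc13c, a Munc13 priming factor, was higher in striatum by 1.09 ± 0.13 (limma adjusted p = 0.001) and Syt4, a synaptotagmin that binds little calcium, by 1.16 ± 0.28 (0.041). Synpr (-1.06 ± 0.09, adjusted p = 0.0002), Rab3b (-1.17 ± 0.23, 0.016), Cplx2 (-0.63 ± 0.15, 0.041) and Unc13a (-0.55 ± 0.14, 0.043) were lower. Over all 16 arrays, Unc13c was at 0.84 ± 0.26 (adjusted p = 0.11), Syt4 at 1.61 ± 0.53 (0.12) and Synpr at -0.78 ± 0.23 (0.079).

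**Figure D4:**
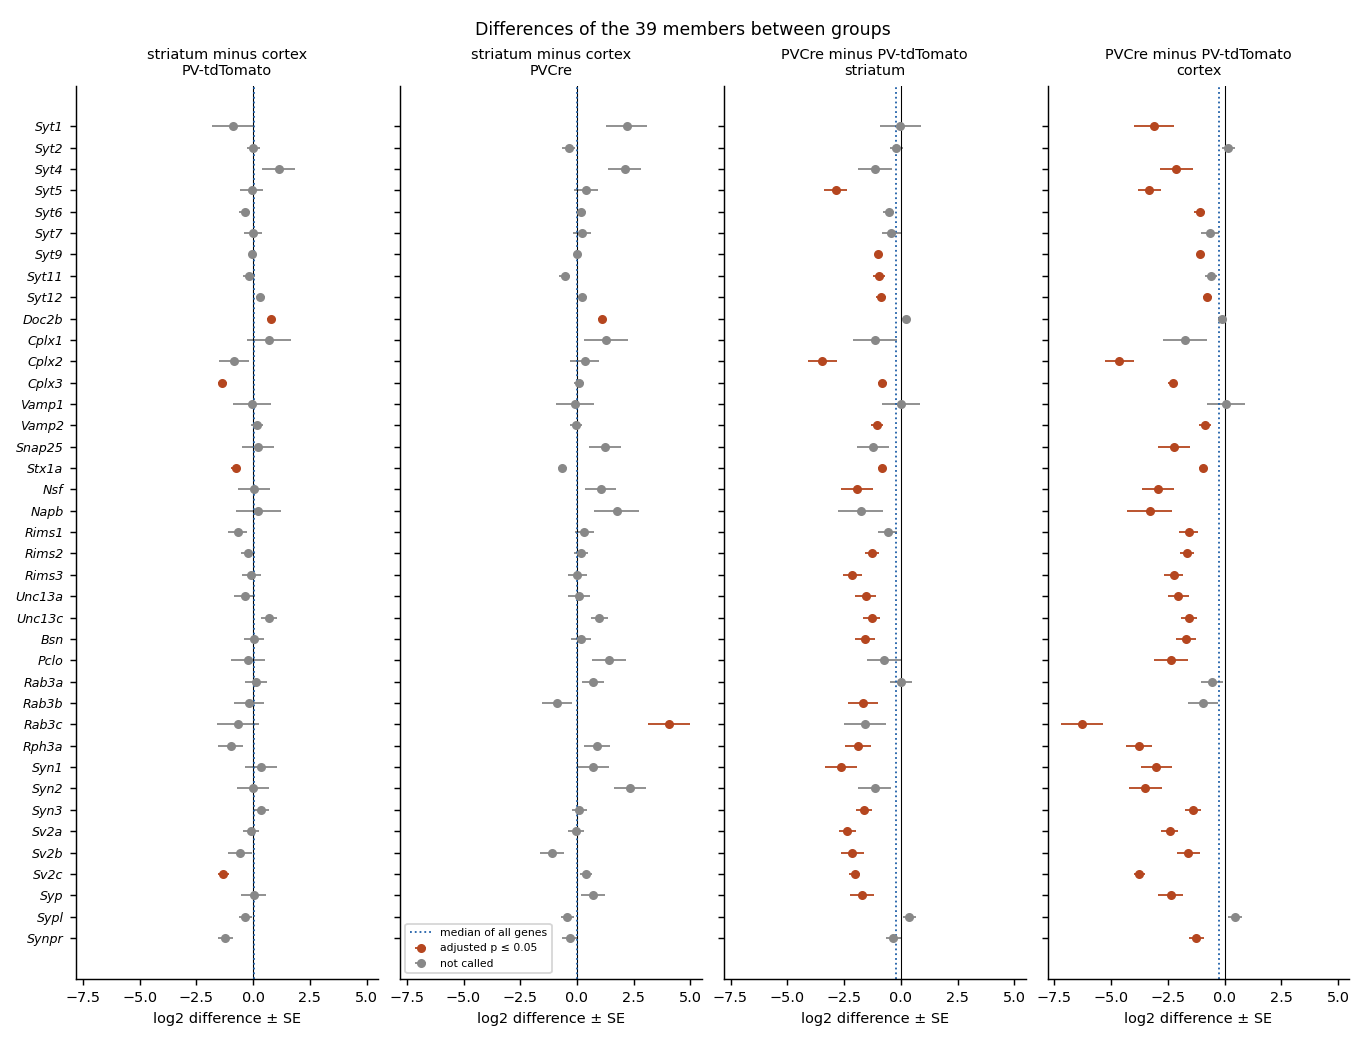
Log2 difference ± SE of each member for striatum minus cortex in each line (left panels) and PVCre minus PV-tdTomato in each region (right panels). Filled orange points passed the test (limma adjusted p of 0.05 or less), grey ones did not, and the dotted line is the median of all genes tested. Few members leave 0 between regions, and most lie left of the dotted line between lines, down to Rab3c at -6.27 in cortex.

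The second comparison asked how the PVCre arrays differ from the PV-tdTomato arrays. In striatum 22 of 39 members passed the test, all lower in PVCre, where 53.4% of all genes passed and 35.3% were lower. In cortex 30 of 39 passed, all lower, where 53.6% of all genes passed and 34.6% were lower. The median difference of the members was -1.15 in striatum and -1.71 in cortex, against -0.23 and -0.23 for all genes. All PVCre arrays were below all PV-tdTomato arrays for 24 members in striatum and 22 in cortex, where 33.4% and 29.9% of all genes were. Among genes with a mean level of at least 7 the medians of all genes were -0.47 and -0.45, with 42.5% and 41.4% called lower, and 18 and 25 of 32 members were. Microglia markers, with 9 of 9 measured markers higher in PVCre in both regions, moved with the line, as did the control separation. Oligodendrocyte markers were higher in PVCre for 4 and 6 of 9, but their mean did not separate the lines. It was 14.81 to 15.32 in PV-tdTomato replicates 3 and 4, within the 14.71 to 15.65 of PVCre arrays. Of the parvalbumin interneuron markers, 2 and 5 of 9 were lower in PVCre, of endothelial and mural markers 6 of 8 were higher and 1 lower in striatum and 1 higher and 1 lower in cortex, of striatal projection neuron markers 3 and 2 of 6 were lower, of pyramidal markers 2 and 3 of 5 were lower and 1 was higher in both regions, and of astrocyte markers 1 and 1 of 6 were lower. The part of these cells in the line differences was not tested.

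The scaling between arrays changed the median difference of all genes and how the genes called were split by direction. After quantile normalization the median of all genes was -0.02 in striatum and 0.02 in cortex, and of the genes called, 49.7% and 52.2% were higher in place of 33.9% and 35.4%. Under that scaling 19 members were lower and 1 higher in striatum, with a median of -0.79, and 26 were lower and 1 higher in cortex, with a median of -1.42. Of all genes, 24.0% and 23.8% were then called lower. The member that was then higher in both was Sypl (0.83 ± 0.30, limma adjusted p = 0.037, and 0.98 ± 0.30, 0.016), which as deposited differed by 0.38 ± 0.29 (0.28) and 0.46 ± 0.29 (0.19). Without the 6 arrays low in Pvalb, 34 members were lower and 1 higher in striatum (39.4% of all genes lower), and 31 lower and 1 higher in cortex (29.5%). Sypl was again the higher one (0.69 ± 0.19, adjusted p = 0.014, and 0.76 ± 0.22, 0.022). With the Xist class of the array as a covariate, 20 and 30 members were lower and 0 higher, where 33.3% and 32.5% of all genes were lower.

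Of 10 calcium sensors, 4 were lower in striatum, a share near the 35.3% of all genes, and 6 in cortex, where 34.6% of all genes were. Syt5, a synaptotagmin of dense-core and synaptic vesicles, was at 10.64 to 12.06 in PV-tdTomato striatum and 10.16 to 12.73 in PV-tdTomato cortex, and at 8.26 to 9.31 and 7.74 to 8.76 in PVCre, with no overlap. It fell by 2.86 ± 0.51 in striatum (limma adjusted p = 0.00036) and by 3.31 ± 0.51 in cortex (0.00011). Syt9, a fast calcium sensor of limbic and striatal neurons, was at 6.62 to 7.26 in all PV-tdTomato arrays and within background in PVCre, at 5.76 to 6.09, and fell by 1.01 ± 0.13 (2.5e-05) and 1.09 ± 0.13 (1.4e-05). Syt12 was lower in both regions (-0.86 and -0.76), Syt11 in striatum (-0.97), and Syt1, Syt4 and Syt6 in cortex. Syt2, Syt7 and Doc2b were not called in either region over the 16 arrays, but without the 6 arrays low in Pvalb Syt7 was at -0.99 ± 0.22 in striatum (limma adjusted p = 0.0049) and -0.85 ± 0.25 in cortex (0.023). Syt6 was within background on 3 of 4 PVCre striatal and all PVCre cortical arrays, so its size is understated.

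Of the complexins, Cplx3 was lower in PVCre beside Cplx2. Its difference was -0.82 ± 0.20 in striatum (limma adjusted p = 0.0031) and -2.29 ± 0.20 in cortex (9.2e-07), and most PVCre arrays were within or just above background, so the sizes are understated.

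Among the SNARE proteins and the proteins that take them apart, 3 of 6 were lower in striatum and 5 of 6 in cortex, all but Vamp1. The shares of all genes called lower were 35.3% and 34.6%. Snap25, which binds syntaxin and synaptobrevin, was at 15.78 to 17.87 in PV-tdTomato arrays, at 14.80 to 16.33 in PVCre striatum, and at 15.61, 13.28, 16.19 and 12.82 in PVCre cortex. It was lower in cortex (-2.24 ± 0.71, limma adjusted p = 0.016), and PVCre replicates 2 and 4 were lowest. Nsf, the ATPase that separates the SNARE complex, fell by 1.93 ± 0.70 in striatum (0.03) and by 2.93 ± 0.70 in cortex (0.0028). Napb, its neuronal adaptor, fell by 3.29 ± 0.99 in cortex (0.012) and was at -1.76 ± 0.99 in striatum (0.15). Stx1a was lower in both regions, at -0.81 ± 0.18 and -0.95 ± 0.18.

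All 7 active zone and priming genes were lower in PVCre cortex, by -1.57 to -2.36, and 5 of 7 in striatum. The shares of all genes called lower were 34.6% in cortex and 35.3% in striatum. Rims3, a short RIM, was at 7.89 to 9.89 in PV-tdTomato and at 6.44 to 6.82 in PVCre, with no overlap in either region. It fell by 2.13 ± 0.42 in striatum (limma adjusted p = 0.00065) and by 2.23 ± 0.42 in cortex (0.00046). Unc13a, the main Munc13 of forebrain synapses, fell by 1.55 ± 0.48 and 2.03 ± 0.48, Rims2 by 1.27 ± 0.31 and 1.65 ± 0.31, Bsn, the scaffold Bassoon, by 1.58 ± 0.45 and 1.71 ± 0.45, and Unc13c by 1.28 ± 0.37 and 1.57 ± 0.37. Unc13c was within background on all 4 PVCre cortical arrays, so its size there is understated. Rims1 and Pclo, the scaffold Piccolo, were at -0.58 (0.25) and -0.73 (0.43) in striatum and were called in cortex, at -1.58 (0.0046) and -2.36 (0.016).

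The Rab3 group held the member with the largest difference. Rab3c fell by 6.27 ± 0.93 in cortex (limma adjusted p = 8.2e-05) and was at -1.57 ± 0.93 in striatum (0.17). The 4 PVCre cortical arrays, at 6.02 to 10.91, lay below the 4 PV-tdTomato ones, at 13.50 to 15.49. Rph3a, which encodes the Rab3 effector rabphilin, was at 9.58 to 12.10 in PV-tdTomato cortex and at 6.75 to 7.23 in PVCre cortex and fell by 3.77 ± 0.56 there (7.7e-05), with -1.89 ± 0.56 in striatum (0.011). Rab3b was called in striatum alone (-1.67 ± 0.66, 0.045; -0.96 ± 0.66 in cortex, 0.23), and Rab3a, the major Rab3 of synaptic vesicles, in neither region (0.01 ± 0.48 and -0.57 ± 0.48).

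The synapsins were called lower between lines in all comparisons but 1. Of all genes, 35.3% were called lower in striatum and 34.6% in cortex. Syn1 was at 11.22 to 14.01 in PV-tdTomato arrays and at 8.70 to 11.07 in PVCre arrays, with no overlap, and fell by 2.63 ± 0.70 in striatum (limma adjusted p = 0.0056) and by 3.00 ± 0.70 in cortex (0.0024). Syn2 fell by 3.49 ± 0.72 in cortex (0.0011), where PVCre replicates 2 and 4 were at 7.20 and 6.96, and was at -1.15 ± 0.72 in striatum (0.2). Syn3 was lower by -1.63 ± 0.35 (0.0014) and -1.40 ± 0.35 (0.0041).

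Of the vesicle membrane proteins, Sv2c fell by 3.75 ± 0.25 in cortex, with the smallest adjusted p of any member (limma, 1.3e-07), and by 2.03 ± 0.25 in striatum (1.4e-05). Its PVCre levels were mostly within background, so these sizes are understated. Sv2a, the SV2 form of nearly all synapses, was at 11.47 to 12.99 in PV-tdTomato and at 9.43 to 10.74 in PVCre, and fell by 2.35 ± 0.36 (9.8e-05) and 2.42 ± 0.36 (8e-05). Sv2b was at -2.13 ± 0.52 (0.0031) and -1.59 ± 0.52 (0.018), and Syp at -1.70 ± 0.54 (0.016) and -2.38 ± 0.54 (0.0021). Synpr was lower in cortex (-1.24 ± 0.33, 0.0054) but not called in striatum (-0.33 ± 0.33, 0.41), and Sypl was called in neither region.

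Several of these calls lay near the threshold. In striatum, Nsf lost its call without PV-tdTomato striatum replicate 1 or 2 or PVCre striatum replicate 1 or 2 (-1.51 to -1.83, limma adjusted p up to 0.099), and Syp without PVCre striatum replicate 1 (-1.44, 0.053). Rab3b lost it without PV-tdTomato striatum replicate 1 or 2, any PVCre striatum replicate or PVCre cortex replicate 1 (-1.33 to -1.75, up to 0.12). In cortex, Syt4 lost it without PV-tdTomato cortex replicate 1 or 2 or PVCre cortex replicate 2 or 4 (-1.72 to -1.91, up to 0.084), and Snap25 without PVCre cortex replicate 2 or 4 (-1.84 and -1.69, 0.056 and 0.058). Pclo lost it without PV-tdTomato cortex replicate 1 or 2 or PVCre cortex replicate 2 (-1.93, -1.97 and -2, up to 0.055), and Sv2b without PV-tdTomato or PVCre cortex replicate 3 (-1.40 and -1.04, 0.051). Quantile normalization ended the calls of Syt11, Vamp2, Nsf, Rab3b and Syp in striatum and of Syt4, Vamp2, Sv2b and Synpr in cortex, with adjusted p from 0.066 to 0.4. Without the 6 arrays low in Pvalb, Sv2b in cortex was at -1.44 (0.21). With array weights, Syt4 (-1.21, 0.074), Snap25 (-1.22, 0.074) and Sv2b (-0.69, 0.26) lost theirs in cortex. With the Xist class as a covariate, Nsf (-1.79, 0.07) and Rab3b (-1.51, 0.1) in striatum and Syt4 in cortex (-1.80, 0.076) lost theirs.

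Within the groups, the members were spread along the same arrays. Replicates 1 and 2, high in Pvalb, were both above replicates 3 and 4 for 32 of 39 members in PV-tdTomato striatum (40.1% of all genes) and for 32 in PV-tdTomato cortex (27.9%). They were both below them for 4 and 3 members (26.4% and 33.8% of all genes). In PVCre cortex, replicates 2 and 4, low in Pvalb, were both above replicates 1 and 3 for 7 of 39 members (17.3% of all genes) and both below them for 26 (20.4%), among them Syt1, Cplx1, Snap25, Nsf, Napb, Syn1, Syn2 and Syp. Gad1, a glutamate decarboxylase that makes GABA, measured 8.88 and 7.40 on those PVCre arrays and at 11.63 and 13.66 on replicates 1 and 3, and Slc32a1, the vesicular GABA transporter, at 6.88 and 5.12 against 8.81 and 10.45. Rab3c had the widest range of any member over the 16 arrays, from 6.02 to 15.49, and Syt2 the narrowest, from 5.33 to 6.72. Unc13c ran against the rest in PV-tdTomato cortex, where replicates 3 and 4 measured 7.51 and 8.17 while 1 and 2 were at 6.15 and 6.40, as did Syt11, with 14.78 and 14.36 over 13.75 and 13.73.

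**Figure D5:**
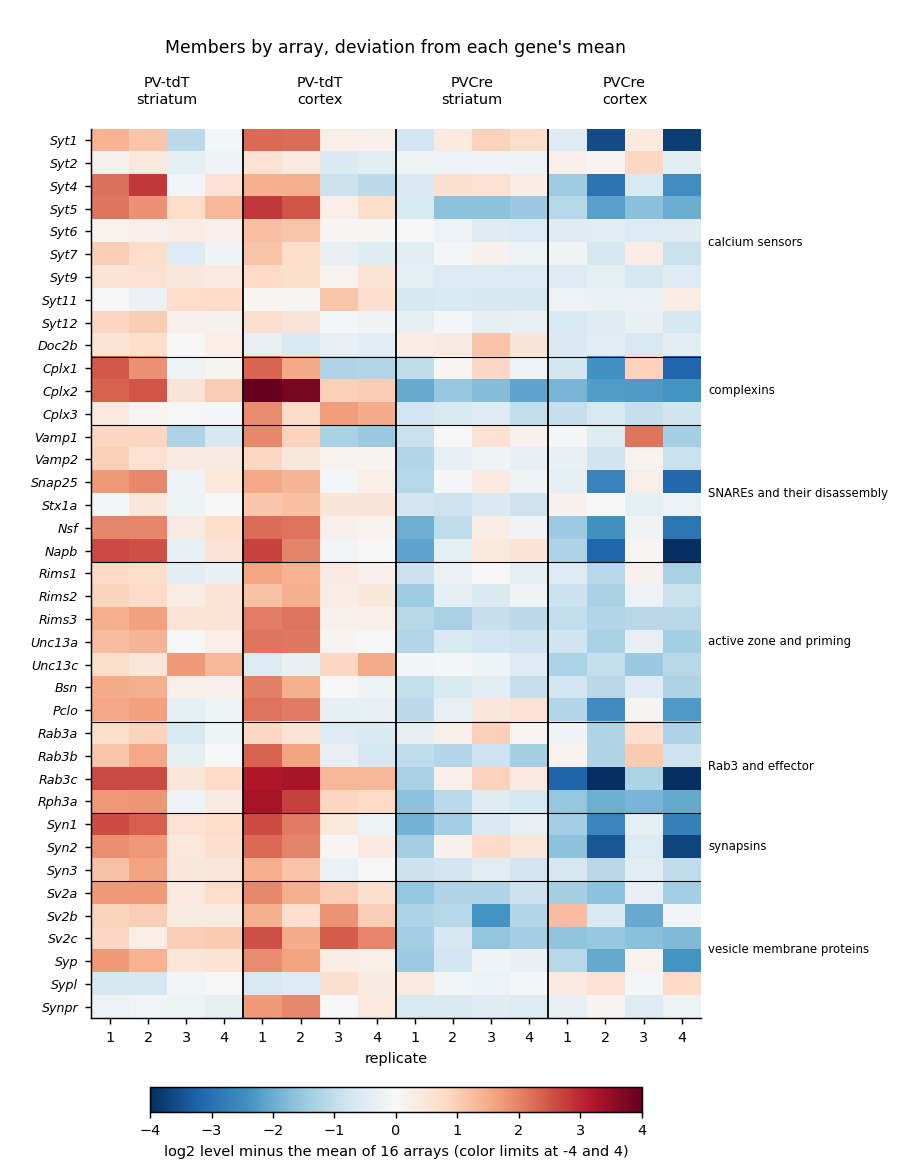
Deviation of each member's log2 level from its mean over 16 arrays, with genes in rows by role and arrays in columns by group and replicate; red is above and blue below the mean, and colors end at -4 and 4. Replicates 1 and 2 of PV-tdTomato are red in most rows, and PVCre cortex replicates 2 and 4 are blue in most rows, while Sypl and Unc13c show other patterns.

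Other genes of the synaptic vesicle cycle, from 3 further lists, gave a context for the members. Of 41 tested genes of docking and priming, 1 was higher and 1 lower in striatum over both lines. Of all genes, 3.37% were higher and 0.955% lower. Syt10, a synaptotagmin that triggers release of growth factor vesicles, was higher by 2.46 ± 0.26 (limma adjusted p = 1.8e-05), from cortical means of 6.32 and 5.92, and Cadps2, a priming factor of dense-core vesicles, was lower (-1.60 ± 0.42, 0.045). Between lines in striatum, 22 were lower and 1 higher, against 35.3% and 18.1% of all genes. In cortex 25 were lower and 1 higher, against 34.6% and 19%. Vamp8, a synaptobrevin of endosomes and of secretory cells outside the nervous system, was the higher one in striatum (2.39 ± 0.28, 1e-05).

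Of 22 tested genes of the vesicle membrane and of filling, 2 were lower in striatum over both lines, the vesicular glutamate transporters Slc17a8 (-1.35 ± 0.25, limma adjusted p = 0.0036) and Slc17a7 (-0.86 ± 0.22, 0.034). The share of all genes called lower was 0.955%. Slc17a8 had a mean of 8.19 in PV-tdTomato cortex and 5.50 to 5.57, within background, in the other groups, and its interaction passed the test (2.68 ± 0.49, 0.048). Between lines, 13 were lower and 0 higher in striatum, and 16 lower and 1 higher in cortex. Of all genes, 35.3% and 34.6% were lower. Among the lower genes of the list was Syngr3, a synaptogyrin (-3.46 ± 0.46 and -3.30 ± 0.46). Slc32a1, itself on this list, was at -3.16 ± 0.94 (0.011) and -4.82 ± 0.94 (0.00067).

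Of 29 tested genes of endocytosis and recycling, 0 passed over both lines between regions with limma, and 3 were at an unadjusted p of 0.05 or less. Of all genes, 4.32% passed. Between lines 18 were lower and 1 higher in striatum and 20 lower and 2 higher in cortex. The shares of all genes called lower were 35.3% and 34.6%. Bin1, an amphiphysin that oligodendrocytes also express, fell by 2.89 ± 0.27 in striatum (limma adjusted p = 1.7e-06) with -1.92 ± 0.27 in cortex (5.8e-05), and Ap2a1, an adaptor subunit of clathrin coats, was at -2.10 ± 0.26 and -2.05 ± 0.26. Over these 3 lists the median line differences were -0.76 to -1.26 in striatum and -0.89 to -1.61 in cortex, against -1.15 and -1.71 for the 39 members and -0.23 for all genes.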

How the data were processed

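RNA from 16 pools of sorted cells was amplified from 5 ng and hybridised to Affymetrix mouse transcriptome arrays. Per the submitters' processing notes, the authors used Affymetrix Expression Console and RMA, and the deposited values are log2 levels. Its version is not given in the sources used here, nor is which arrays were normalized together. RMA shares its probe model across the arrays it treats. In the deposited values the control separation was 4.16 to 4.85 in PV-tdTomato and 3.08 to 3.93 in PVCre arrays. RNA quality was not tested, and differences in it may remain in the values.

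Of 65956 transcript clusters, 30604 list 1 gene, 2146 several and 33206 none, and 827 symbols were updated. The cluster with the highest mean stood for a gene (355 genes had more than 1), and the 33.3% of genes with the lowest mean (under 5.53) were left out. The 20095 others entered limma 3.58.1 (R 4.3.3) in 1 fit of 16 arrays with a mean per group, with Benjamini-Hochberg adjustment and a threshold of 0.05. Differences between paralogs and relations to Pvalb were tested by permutation in Python 3.11.15 with numpy 2.4.6, pandas 2.3.3 and scipy 1.17.1, and plotted with matplotlib 3.10.9. The scripts were tested on simulated data.

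The members, the 3 further lists of vesicle cycle genes and the cell type markers were chosen with earlier results of these data known. Described in full were the 6 isoforms of the contrast and the members past the threshold with the largest differences; up to 4 genes of each further list were named by smallest p. Promoter windows were read from RefSeq on GRCm38.p6. Entries were missing for Doc2b, Rims2, Snap25, Syn3, Syt12, Syt4, Syt5, Syt7 and Vamp2.

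Arrays of 1 group are separate pools of cells; p-values measure the spread between pools, whose mice may be shared between regions. Deviations of arrays with the same replicate number correlated at 0.58 to 0.76 between regions in PV-tdTomato and at -0.29 to 0.69 in PVCre. By the criterion used (every pair above 0.1) the number pairs regions in PV-tdTomato and not in PVCre. In PV-tdTomato, replicates 1 and 2 were high and 3 and 4 low in Pvalb in both regions. The criterion cannot tell a pairing by number from that split. In each line, though, only 2 of 4 arrays correlated best with their own number, and in PV-tdTomato replicates 2 and 4 matched replicates 1 and 3 best. Between lines, 0 of 4 arrays did in striatum and 1 of 4 in cortex. The main fit has no block, and the replicate block uses the number in both lines and between them. Its results for PVCre, the interaction and the lines thus rest on a pairing that the criterion does not give. Alternatives were the filter, the normalization, the variance prior, array weights, the cluster of a gene, the replicate block and each array left out; leaving out the 6 arrays low in Pvalb and the Xist class as a covariate were chosen after seeing the data. The number of arrays limits the precision.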

Additional observations from a re-analysis of the deposited data

Results flagged for a closer look

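Among 168 groups of 4 arrays, counting every member and the check genes, 5 groups (2.98%) held an array that stood apart from the other 3, where chance gives about 5%. Vamp2 was at 8.53 in PVCre striatum replicate 1 and at 9.37 to 9.53 in the others, and the endothelial and mural marker mean of that array was 8.89. Syt5 was high in the same array, at 9.31 against 8.26 to 8.42, and Syt9 was at 6.09 against 5.91, all within background. Sv2b was at 5.71 in PVCre striatum replicate 3 and at 6.85 to 6.94 in the others. Syt11 was at 13.98 in PVCre cortex replicate 4 and at 13.42 to 13.45 in the others.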

How the results depend on the processing

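The 61 calls of members kept their direction under every alternative run. All 61 held with no filter, the trended robust prior and the mean of all clusters, 60 with centring, 60 with the replicate block, 58 with the Xist class, 57 with array weights, 55 without the 6 arrays low in Pvalb, 50 with quantile normalization and 46 of 47 among genes with a mean of at least 7. Leaving out 1 array lost 1 to 5.

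The number of members called moved as follows, with the share of all genes called under the same setting in brackets. Between regions over both lines it was 3 in the main fit (4.32%), 1 at a mean of at least 7 (3.09%) and 15 with array weights (28.2%). It was 8 with the replicate block (10.3%) and 8 without the 6 arrays (7.97%). In PV-tdTomato it was 4 in the main fit (2.36%), 1 at a mean of at least 7 (1.26%) and 2 with quantile normalization (2.00%). In PVCre it was 2 in the main fit (3.96%) and 1 at a mean of at least 7 (3.53%). It was 7 there with array weights (12.6%) and 7 with the replicate block (10.4%). Between lines in striatum it was 22 in the main fit (53.4%) and 35 without the 6 arrays (56.2%). The interaction gave 0 in the main fit (0.199%), 1 with quantile normalization (0.323%) and 1 with the trended robust prior. It gave 2 with array weights (0.647%), 2 with the replicate block (0.647%) and 1 without the 6 arrays (0.761%). No share is given for the trended robust prior or for single arrays left out. Leaving out single arrays gave 3 to 5, 2 to 5, 1 to 4, 20 to 23, 27 to 30 and 0 to 2 in the order both lines, PV-tdTomato, PVCre, striatum, cortex, interaction.

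The line difference of Cplx1 minus Cplx2 was 3.09 (exact permutation, adjusted p = 0.067) without the 6 arrays. The unadjusted p behind that value was the smallest that the permutations of the arrays left can give. Without single arrays the paralog differences ran between regions from -1.09 to -0.55 (Syt2 minus Syt1), 0.96 to 1.62 (Cplx1 minus Cplx2) and -0.35 to 0.10 (Vamp1 minus Vamp2), and between lines from 1.28 to 1.83, 2.23 to 2.88 and 0.74 to 1.22. With quantile normalization the relation to Pvalb was -0.16 for Cplx2 in the higher cluster, -0.17 for Cplx2, -0.16 for Syt1 and 0.97 for Syt2 (exact permutation, adjusted p = 0.037) in the lower, and 0.90 for Vamp1 in PVCre arrays (exact permutation, adjusted p = 0.062).

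Of the 6 isoforms, differences that were not called changed sign. With array weights these were, between regions over both lines, Syt2 0.01, Cplx2 0.29 and Vamp1 0.67, in PV-tdTomato Syt1 0.19, Cplx2 0.39 and Vamp1 1.22, in PVCre Vamp1 0.12, and in the interaction Cplx1 -1.12 and Cplx2 -0.20. Without the 6 arrays they were Syt1 -0.31 and Vamp2 -0.14 over both lines, Cplx1 -0.17 in PVCre, Vamp1 -0.38 between lines in cortex and Cplx1 -0.39 in the interaction. Syt1 between lines in striatum was 0.14 with quantile normalization and 0.11 with the Xist class. Without single arrays, signs changed for Cplx2 over both lines (-0.50 to 0.02), Vamp1 over both lines (-0.33 to 0.27), in PV-tdTomato (-0.55 to 0.59) and in PVCre (-0.58 to 0.59), Vamp2 in PVCre (-0.18 to 0.19), Syt1 between lines in striatum (-0.49 to 0.34), Syt2 (-0.04 to 0.37) and Vamp1 (-0.63 to 0.69) between lines in cortex, and in the interaction Cplx1 (-0.06 to 1.35), Vamp1 (-0.69 to 0.64) and Vamp2 (-0.35 to 0.02). The cause of these changes was not tested. Signal over background limits Syt2, Syt9, Doc2b, Syt6, Sv2c, Cplx3 and Unc13c, which were within background on 12, 8, 8, 7, 7, 5 and 4 of 16 arrays.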
